A study of Homo sapiens with 4 samples.

Results

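The genes with which a cell detects RNA that looks viral and starts interferon production were followed in Hs746T cells, an established human gastric carcinoma cell line with MET amplification and a MET exon 14 skipping mutation. The 10 members, taken by name, were the RNA sensors DDX58 (now named RIGI), IFIH1, DHX58, TLR3 and EIF2AK2, the adaptor MAVS, the transcription factors IRF3 and IRF7, and the interferon genes IFNB1 and IFNL1. All 10 had probes, 15 in all, among the 34127 probes of the array, and 19740 genes could be named. Cells were treated with DMSO (the vehicle), treated with PHA665752 (a small molecule inhibitor of the MET kinase), transfected with SC siRNA (a scrambled siRNA without an intended target) or transfected with MET siRNA. The transfected cells were harvested after 48 h, and neither dose nor time of PHA665752 is given for the arrays in the sources used here. Each condition was measured on 1 single-colour Agilent array, so no value has a replicate error, no test was possible and no p-value is given. The SC siRNA and DMSO arrays differ in the siRNA, in the transfection with its medium change and in the vehicle at once. Time in culture may differ too, since none is given for the DMSO cells. No mock-transfected cells were among the samples, and these factors cannot be told apart.

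As background, DDX58 and IFIH1 are helicases of the cytosol that bind double-stranded RNA and signal through MAVS on mitochondria, while DHX58, a related helicase without the signalling domain, modulates them. TLR3 detects double-stranded RNA in endosomes, and EIF2AK2, also called PKR, is a kinase that stops translation when it binds such RNA. Signals from these sensors activate IRF3 and NF-kB, which switch on IFNB1 and the interferon lambda gene IFNL1. Secreted interferon then acts on the cells through its receptors and a transcription factor complex that includes IRF9, and so raises the transcription of most sensors and of IRF7, whereas MAVS and IRF3 are made constitutively in most cells.

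The promoters are shown because most members differed in the same direction between the arrays, and these motifs are the known binding sites of interferon-activated factors and of NF-kB. RefSeq promoter sequence (GRCh38.p14) was matched for 7 of the 10 members, and DHX58, IRF3 and IRF7 had no entry. Each line runs from 220 bases before to 30 bases after the annotated start, on the strand of the gene. Capitals mark matches to the core of the interferon-stimulated response element (ISRE), GAAANNGAAA or its reverse complement TTTCNNTTTC, and to an NF-kB site, GGGANNNTCC or its reverse complement GGANNNTCCC.
IFIH1 (chr2:162318655-162318904, minus strand): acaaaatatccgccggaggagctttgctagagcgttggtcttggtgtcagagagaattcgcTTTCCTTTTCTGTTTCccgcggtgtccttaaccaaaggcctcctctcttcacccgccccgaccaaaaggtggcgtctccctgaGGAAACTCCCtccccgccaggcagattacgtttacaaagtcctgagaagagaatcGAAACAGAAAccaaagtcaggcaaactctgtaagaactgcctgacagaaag
TLR3 (chr4:186068936-186069185, plus strand): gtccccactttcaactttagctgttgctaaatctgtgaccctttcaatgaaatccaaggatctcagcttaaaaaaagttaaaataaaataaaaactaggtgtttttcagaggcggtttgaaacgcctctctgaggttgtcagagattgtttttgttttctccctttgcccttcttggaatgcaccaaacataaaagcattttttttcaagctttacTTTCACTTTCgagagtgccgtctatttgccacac
EIF2AK2 (chr2:37156951-37157200, minus strand): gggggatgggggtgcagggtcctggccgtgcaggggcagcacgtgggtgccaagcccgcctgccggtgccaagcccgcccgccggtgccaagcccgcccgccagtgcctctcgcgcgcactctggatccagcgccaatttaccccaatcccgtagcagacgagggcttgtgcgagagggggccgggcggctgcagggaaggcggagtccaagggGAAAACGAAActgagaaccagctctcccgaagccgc
DDX58 (chr9:32526167-32526416, minus strand): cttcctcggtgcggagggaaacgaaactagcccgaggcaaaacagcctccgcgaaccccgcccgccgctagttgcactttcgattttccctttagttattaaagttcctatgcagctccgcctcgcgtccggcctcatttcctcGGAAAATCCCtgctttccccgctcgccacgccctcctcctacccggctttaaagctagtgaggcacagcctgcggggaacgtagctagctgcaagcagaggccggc
IFNB1 (chr9:21077913-21078162, minus strand): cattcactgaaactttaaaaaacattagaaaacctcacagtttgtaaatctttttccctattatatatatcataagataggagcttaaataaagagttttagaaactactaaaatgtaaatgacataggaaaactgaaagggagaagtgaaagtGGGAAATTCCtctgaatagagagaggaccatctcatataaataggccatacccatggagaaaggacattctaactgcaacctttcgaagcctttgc
IFNL1 (chr19:39296187-39296436, plus strand): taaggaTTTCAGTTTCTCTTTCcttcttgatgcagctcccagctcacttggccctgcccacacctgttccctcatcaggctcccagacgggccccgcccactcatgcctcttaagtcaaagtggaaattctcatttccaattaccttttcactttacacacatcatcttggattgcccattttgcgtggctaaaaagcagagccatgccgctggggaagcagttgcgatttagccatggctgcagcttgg
MAVS (chr20:3846614-3846863, plus strand): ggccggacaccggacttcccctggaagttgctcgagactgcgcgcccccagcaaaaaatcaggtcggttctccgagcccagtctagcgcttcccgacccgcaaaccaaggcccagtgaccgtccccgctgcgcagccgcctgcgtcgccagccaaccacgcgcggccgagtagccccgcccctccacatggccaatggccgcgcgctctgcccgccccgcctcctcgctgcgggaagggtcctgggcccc

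An ISRE core was found in the promoters of 4 of these 7 members, IFIH1, TLR3, EIF2AK2 and IFNL1, searching from 250 bases before to 50 bases after the start. Over 27305 promoters of the same length the share was 3.65%. In IFIH1 a pair of overlapping matches began at -159 and -153 and a further match at -21, in TLR3 the match began at -4 and in EIF2AK2 at -6. The overlapping IFNL1 matches began at -214 and -208. An NF-kB site was found in 3 of the 7, at -76 in DDX58, at -76 in IFIH1 and at -66 in IFNB1, against 5.07% of all promoters. MAVS held neither set of letters in this window. The ISRE pattern allows a single spacing of the GAAA blocks, and blocks at other spacings, as in DDX58 and IFNB1, are not marked. A promoter without a match is therefore not shown to lack such an element. These matches describe the sequence and are no evidence of binding.

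**Figure D1:**
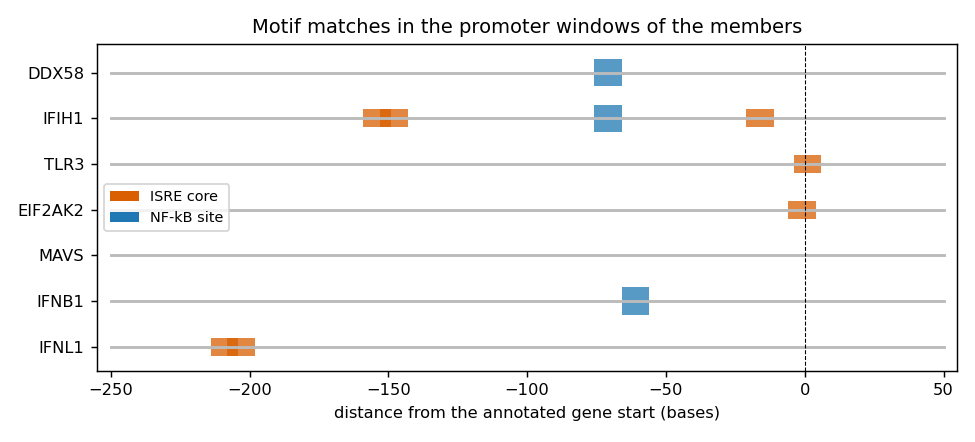
Positions of motif matches in the promoter windows of the 7 members with a RefSeq entry. The horizontal axis is the distance from the annotated start in bases, orange boxes are ISRE core matches and blue boxes NF-kB matches. IFIH1, TLR3, EIF2AK2 and IFNL1 carry orange boxes, DDX58, IFIH1 and IFNB1 carry blue ones, and MAVS carries none.

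Signals are given as the processed intensity of the scanner software, which is background-subtracted but not scaled between arrays. Ratios are log2 differences after subtracting the 75th percentile of each array, and probes of different genes are not compared in level. The 75th percentile signals were 831 to 990.1, the lowest signals well above background 10.2 to 17.4, and the share of probes well above background 61.1% to 68.2%. Spots marked as outliers were 1.69% to 2.21% on 3 arrays and 5.58% on the MET siRNA array. Among probes spotted 10 times, the noise of a log2 ratio between spots was 0.0780 (median SD), which covers neither culture nor labelling. The targeted gene, MET, had a log2 ratio of -1.33 for MET siRNA over SC siRNA and of -0.93 for PHA665752 over DMSO. Of 6 epithelial markers, 5 were well above background on all arrays, and CDH1 was so on 3, at signals of 10.4 to 33.0 over the arrays. The mesenchymal markers CDH2, FN1 and ZEB1 were also well above background on all arrays, and VIM had no usable probe. Their signals were 3552 to 4223 for CDH2, 770 to 3564 for FN1 and 1449 to 2790 for ZEB1. Of 6 leukocyte markers, CD3E and CLEC4C were well above background on no array, and PTPRC and CD14 on every array, at signals of 22.7 to 37.8 and 113 to 140.1. ITGAX was so on 3 arrays and LILRA4 on 1. Summed over the 6 without scaling, probes not well above background included, they gave 224 under DMSO, 203 under PHA665752, 177 after SC siRNA and 173 after MET siRNA. The sums are not corrected for array brightness, and the 75th percentile signal was 990.1 under DMSO, 853 under PHA665752, 831 after SC siRNA and 858 after MET siRNA.

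SC siRNA over DMSO was the comparison in which these genes differed most. Of the 9 members with a usable probe on every array, 7 were higher past 2-fold with SC siRNA, with a median log2 ratio of 2.40 over the 9. Among all 14274 named genes with a ratio, 2.89% were higher past 2-fold, 1.16% were lower past 2-fold, and the median was -0.010. The remaining members, MAVS and IRF3, had log2 ratios of -0.24 and -0.083. The single probe of the other member, IFNL1, was also higher past 2-fold but lacked a usable spot on the MET siRNA array. Whether every cell or a fraction of the cells changed cannot be told from bulk RNA.

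The helicase sensors were among the most different genes of the array. DDX58 (A_33_P3372910, NM_014314) had signals of 591 under DMSO, 780 under PHA665752, 4815 after SC siRNA and 6527 after MET siRNA. Both siRNA arrays thus lay far above both others, and SC siRNA over DMSO was 3.28 on the log2 scale, or 9.70-fold. The other DDX58 probe, A_33_P3418170, had signals of 331, 393, 3486 and 4326 in the same order and a log2 ratio of 3.65. The probes put the arrays in the same order, and their ratios differed by 0.37, more than the noise between spots. IFIH1, the gene of MDA5 (A_23_P68155, NM_022168), had signals of 771 under DMSO, 1513 under PHA665752, 7488 after SC siRNA and 10979.8 after MET siRNA. Its ratio between the controls was 3.53 on the log2 scale, an 11.6-fold difference that ranked 22 from the highest of 14274 genes. DHX58, the gene of LGP2 (A_23_P38346, NM_024119), had 1624, 2598, 7170.2 and 10726 in that order, and a ratio of 2.40, or 5.26-fold. All these helicases had the order MET siRNA, SC siRNA, PHA665752, DMSO from high to low.

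The sensors of other compartments and of translation differed by less. TLR3 (A_23_P29922, NM_003265) had signals of 283 under DMSO, 257 under PHA665752, 965 after SC siRNA and 1071 after MET siRNA. Its siRNA arrays were close to each other, as were its other arrays, and SC siRNA over DMSO was 2.02, or 4.07-fold. EIF2AK2 (A_23_P142750, NM_002759) had signals of 6994, 4805, 21186 and 22474 in the same order. SC siRNA over DMSO gave a log2 ratio of 1.85, or 3.61-fold. A dimmer EIF2AK2 probe, A_33_P3224858, had 395, 266 and 1395 on the first 3 arrays, a ratio of 2.07, and a spot marked as a background outlier on the MET siRNA array.

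**Figure D2:**
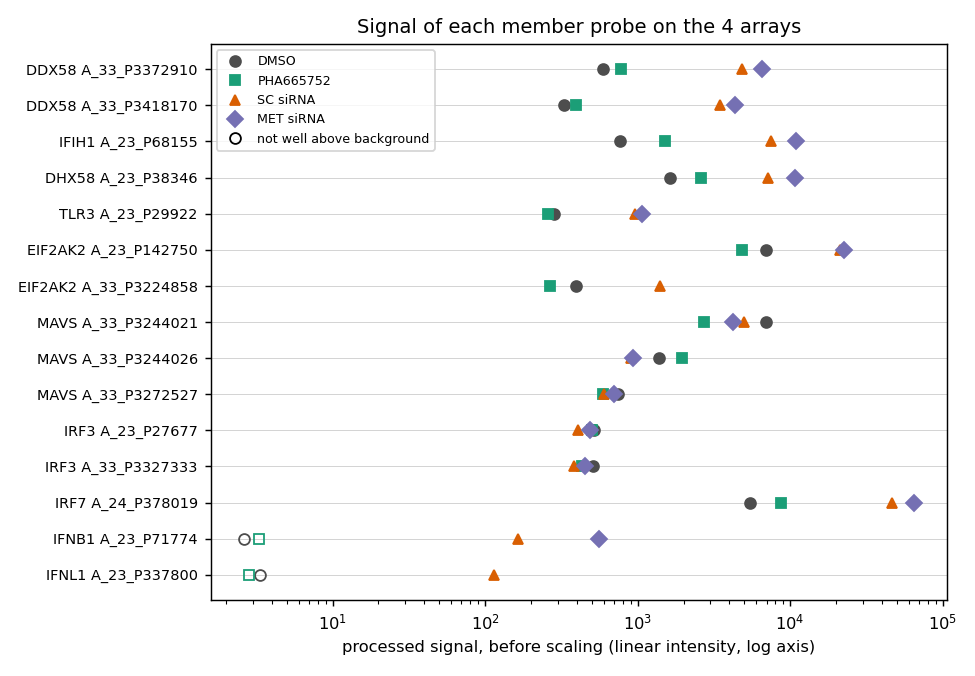
Processed signal of each of the 15 member probes on the 4 arrays, before scaling, on a log axis. Each marker is 1 array, open markers are not well above background, and spots marked as outliers are left out. The siRNA arrays stand to the right of both other arrays for the sensors, IRF7 and IFNB1, while the markers of IRF3 lie together and those of MAVS differ in order between probes.

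The adaptor and the constitutive factor had small ratios between the control arrays, none of them above 0. MAVS (A_33_P3244021, NM_020746) had signals of 6943 under DMSO, 2723 under PHA665752, 4945 after SC siRNA and 4241 after MET siRNA. The other MAVS probes had ratios of SC siRNA over DMSO of -0.37 (A_33_P3244026) and -0.045 (A_33_P3272527, NM_001206491). IRF3 (A_23_P27677, NM_001571) had 517, 504, 410 and 490.2 in the order DMSO, PHA665752, SC siRNA and MET siRNA. Its other probe, A_33_P3327333, had 509.9, 431, 382 and 452, and a ratio of -0.16. IRF7 (A_24_P378019, NM_004031), which amplifies interferon production once induced, stood in contrast at 5421, 8725, 46452 and 64759. Its log2 ratio of 3.35, or 10.2-fold, ranked 27 from the highest of 14274 genes.

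The interferon genes among the members, IFNB1 and IFNL1, were well above background only after transfection. IFNB1 (A_23_P71774, NM_002176) reached 165 after SC siRNA and 555 after MET siRNA. With DMSO and PHA665752 its signals of 2.63 and 3.32 were not well above background, below the lowest signals so marked on these arrays, 10.8 and 12.3. IFNB1 was therefore at least 18.1-fold higher with SC siRNA than with DMSO, a bound taken against the lowest signal well above background on the DMSO array. IFNL1 (A_23_P337800, NM_172140) had a signal of 114 with SC siRNA and 3.36 and 2.83, not well above background, with DMSO and PHA665752. The difference from DMSO was at least 12.5-fold. Its MET siRNA spot carried a background outlier mark, and with the marks ignored its signal there was 376 and MET siRNA over SC siRNA was 1.69. These bounds depend on how dim signals are treated, and over the alternatives the log2 ratio of SC siRNA over DMSO ran from 2.003 to 6.22 for IFNB1 and from 1.52 to 5.34 for IFNL1.

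**Figure D3:**
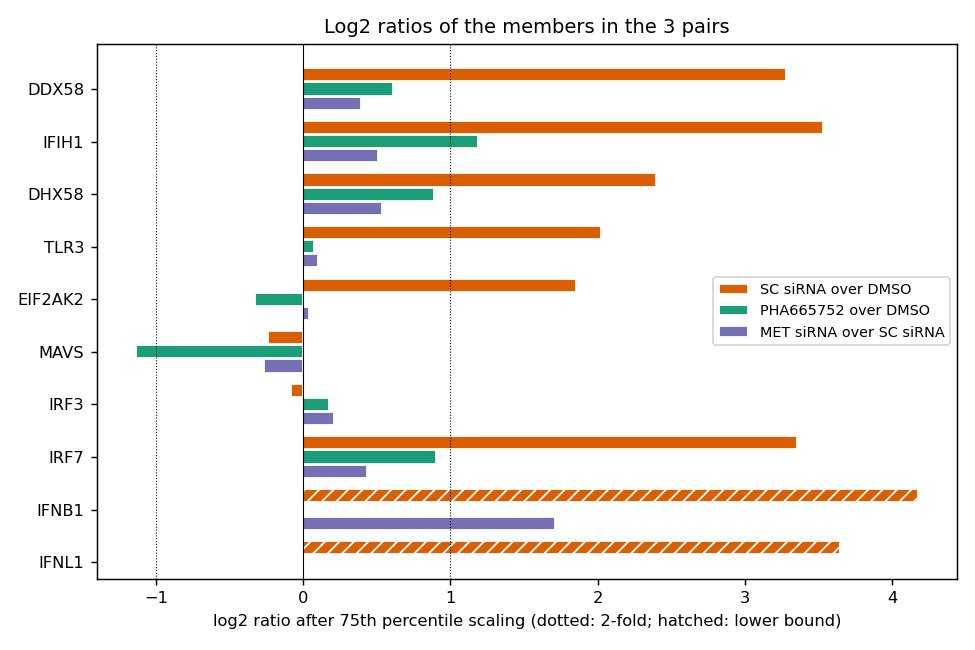
Log2 ratios of the members in SC siRNA over DMSO (orange), PHA665752 over DMSO (green) and MET siRNA over SC siRNA (violet). Bars start at 0, dotted lines mark 2-fold, hatched bars are lower bounds, and a missing bar means that no ratio could be formed. The orange bars of all members but MAVS and IRF3 pass 2-fold, and of the violet bars only that of IFNB1 does.

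MET siRNA over SC siRNA compares the transfected cells with each other and shares the SC siRNA array with the first comparison. Of the 9 members, 1 was higher past 2-fold and 0 were lower, while 2.04% of 13647 named genes were higher and 0.696% lower. The member past 2-fold was IFNB1, with a log2 ratio of 1.71, or 3.27-fold, which ranked 85 from the highest. The ratio was 0.39 for DDX58, 0.51 for IFIH1, 0.53 for DHX58 and 0.43 for IRF7. It was 0.10 for TLR3, 0.038 for EIF2AK2 and 0.21 for IRF3. The MAVS probes had -0.27, 0.00048 and 0.18 in the order given above and disagree in direction, so no direction is given for the gene. The median over the 9 was 0.39, against -0.017 over all named genes. With each array scaled to the median of the probes detected on it, the median ratio of all named genes in this pair shifted by -0.30. Under that scaling IFNB1 was still past 2-fold at 1.41, and TLR3, EIF2AK2 and IRF3 were below 0.

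PHA665752 over DMSO compares cells that were not transfected and shares the DMSO array with the first comparison. Of 8 members with a ratio, 1 was higher and 1 lower past 2-fold, where 13.1% of 14322 named genes were higher and 8.04% lower. IFIH1 was the higher one, with 1.19 on the log2 scale, or 2.28-fold, and with the 50th percentile scaling it was 0.94. IRF7 had a log2 ratio of 0.90, DHX58 of 0.89 and DDX58 of 0.61. TLR3 had 0.075, IRF3 0.18 and EIF2AK2 -0.33. The 50th percentile scaling shifts the median ratio of all named genes in this pair by -0.25, and TLR3 and IRF3 were then below 0. MAVS was lower by its brightest probe, at -1.14, but its other probes had 0.71 and -0.092. The MAVS probes thus disagree in direction, and no direction is given for the gene. IFNB1 and IFNL1 gave no ratio, since neither array of this pair was well above background for them.

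Over both siRNA arrays against both others, 8 members had their probe well above background on all 4 arrays. In 6 of these, DDX58, IFIH1, DHX58, TLR3, EIF2AK2 and IRF7, the lower siRNA array lay above the higher of the DMSO and PHA665752 arrays. Among 13074 named genes well above background on all arrays, 14.1% did so. The gap was smallest for DHX58, at 1.50 on the log2 scale, and largest for DDX58, at 2.67.

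Of 13073 other genes well above background on all arrays, those with a profile over the 4 arrays nearest to that of DDX58 were IFI6, IFITM1, IRF7, BIRC3 and IFIT3. The Euclidean distance of the centred log2 values was 0.097 for IFI6 and 0.22 for IFIT3. IFI6 and IFIT3, both known as interferon-induced genes, had log2 ratios of SC siRNA over DMSO of 3.39 and 3.30. IFITM1, an interferon-induced membrane protein, had 3.18. BIRC3, an apoptosis inhibitor known as an NF-kB target, had 3.09 on signals of only 28.2 with DMSO and 201 with SC siRNA, and its ratio was 1.74 with normexp background correction. By this distance IFIH1 ranked 12, DHX58 35, TLR3 46 and EIF2AK2 56, while IRF3 and MAVS ranked 6068 and 6099.

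The transcripts of the proteins that relay the signal mostly lay within 2-fold between the control arrays, at log2 ratios from -0.89 to 1.19. Of 24 adaptors, kinases and ubiquitin ligases of RNA sensing, 2 were higher past 2-fold with SC siRNA and 0 lower, with a median log2 ratio of 0.034. Over all named genes 2.89% were higher and 1.16% lower, the shares to set beside every list count of this pair below. TRIM25, the ubiquitin ligase that activates the DDX58 protein, had 1.19. NLRC5, a regulator of HLA class I genes, had 1.02 on signals of 63.1 and 107, and it fell short of 2-fold with the 50th percentile, quantile normalization, normexp or plain subtraction. TBK1, the kinase of IRF3, was chosen after its values were seen and had 0.50. Of 10 other IRF and NF-kB factors with a usable probe, 7 had a ratio and only IRF1, at 1.28, was past 2-fold.

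Other sensors of nucleic acids were higher as well. Of 15 with a ratio, 10 were higher past 2-fold and 0 lower, with a median of 1.79. OAS1, which makes the activator of RNase L, had signals of 168 under DMSO, 159 under PHA665752, 3805 after SC siRNA and 3953 after MET siRNA, and a log2 ratio of 4.76. OAS3 and OAS2, of the same family, had 3.57 and 3.11, and OAS2 had 3.76 by the median over its probes. IFIT1, which the list of induced genes also holds, and IFIT5, both of which bind the ends of RNA molecules, had 4.12 and 2.29. Among the receptors and signalling proteins of interferon, 1 of 7 was past 2-fold, IRF9 at 1.97, and the median was -0.020.

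Of the 17 genes in the list induced by IRF3 or interferon, 15 had a usable probe on every array, and ISG15 and CMPK2 had none. All 15 were higher past 2-fold in SC siRNA over DMSO, 3 of them by a bound, with a median of 4.12. Among measured ratios, RSAD2 had 5.79, MX1 5.66, MX2 5.61 and OASL 4.36. The chemokine gene CXCL11 had a bound of 4.50, which has no fixed place among the measured ratios, and 2.22 with normexp. RSAD2, the gene of viperin, had signals of 379 under DMSO, 406 under PHA665752, 17660.4 after SC siRNA and 26768 after MET siRNA. In PHA665752 over DMSO 3 of 12 genes of this list were higher past 2-fold, beside 13.1% of all named genes. These were MX2 at 2.63, MX1 at 1.55 and IFIT2 at 1.12. In MET siRNA over SC siRNA 1 of 15 was higher past 2-fold, CXCL10 at 1.42, beside 2.04% of all named genes. The count of 15 was between 12 and 15 over the alternatives, and 12 with bounds left out.

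Of the other interferon genes, 15 had a usable probe and 4 a ratio of SC siRNA over DMSO, and 11 were well above background on no array. IFNL2 had signals of 51.7 under DMSO, 39.5 under PHA665752, 411 after SC siRNA and 1492 after MET siRNA, a log2 ratio of 3.25 for SC siRNA over DMSO and of 1.81 for MET siRNA over SC siRNA. With normexp the first of these was 2.30. IFNL3 had a bound of 1.57 on a signal of 26.9 with SC siRNA, and 2.06 for MET siRNA over SC siRNA. Its ratio between the controls was 0.68 with normexp and 3.39 with dim signals taken as measured. IFNL2 and IFNL3 are near-identical genes, and their probes may read both. IFNA4 and IFNE, chosen after their values were seen as the others with a ratio, had 0.51 and 0.29.

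Genes that NF-kB is known to induce were higher past 2-fold in 4 of 9 cases and lower in 0, beside 2.89% and 1.16% of all named genes. BIRC3 had 3.09, the cytokine gene IL6 2.89, the chemokine gene CXCL8 1.71 and TNFAIP3, an inhibitor of NF-kB signalling, 1.22. The IL6 signals were low, at 23.2 under DMSO and 144 after SC siRNA, and its ratio was 1.51 with normexp. In the list of EIF2AK2 and eIF2alpha signalling 4 of 14 were past 2-fold, DDIT3 at 1.34, CHAC1 at 1.33, TRIB3 at 1.25 and ATF3 at 1.15, and the median was 0.24. ATF3 was at 0.98 by the median over its probes. In MET siRNA over SC siRNA 3 of 14 genes of this list, CHAC1, TRIB3 and ATF3, were higher past 2-fold and 0 lower. Over all named genes 2.04% were higher and 0.696% lower in that pair. In PHA665752 over DMSO the log2 ratio was 3.61 for ATF3, -0.38 for CHAC1 and -0.15 for TRIB3. The 8 reference genes had ratios from -0.25 to 0.38 between the controls, and 0 were past 2-fold.

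**Figure D4:**
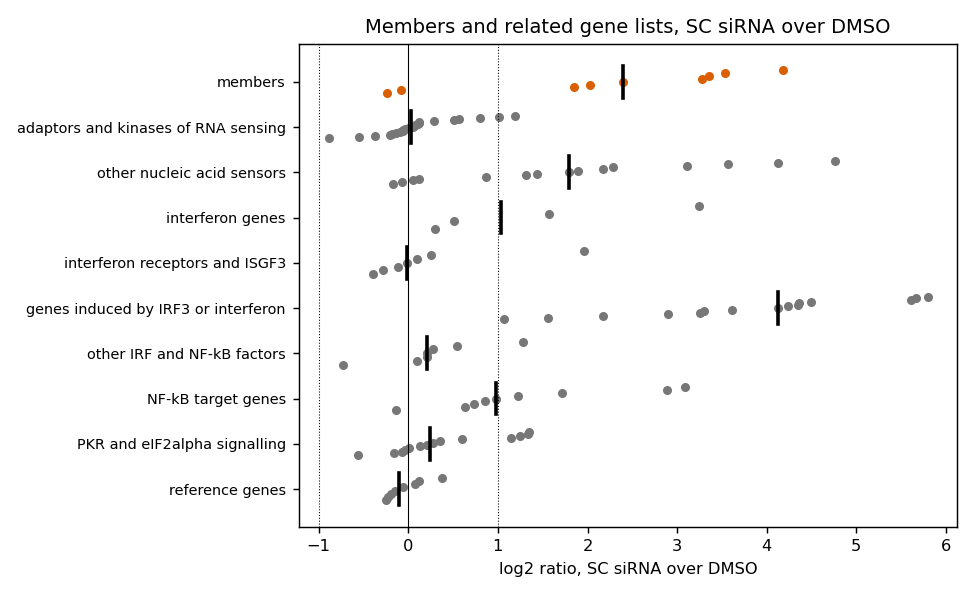
Log2 ratios of SC siRNA over DMSO for the members (orange) and the related gene lists (grey). Each point is 1 gene by its brightest probe, black bars are list medians, dotted lines mark 2-fold, and bounds are drawn at the bound. The members' median of 2.40 lies below that of the induced genes, 4.12, and above those of the other lists.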

How the data were processed

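Total RNA of 4 samples, 1 per condition, was measured on single-colour arrays. The authors deposited scanner files written by Feature Extraction 11.5.1.1 (per the file headers), in which spot intensity is background-subtracted and detrended, with no scaling between arrays. Control and outlier spots were left out, spots of a probe averaged as log2 values, and the 75th percentile of the array subtracted. Where only 1 array of a pair was well above background the ratio was a bound, and where neither was, none was formed. Probes were named through RefSeq accessions (25771 of 34127), and the brightest probe with a value on every array stood for its gene, for 18755 genes. The array design uses another build, so only RefSeq promoters carry coordinates. Members and the 9 gene lists were chosen with earlier results of these data known. Named were all members, up to 5 genes per list past 2-fold in SC siRNA over DMSO, MET and the 5 genes nearest to DDX58 in profile. Some listed genes are not reported here and were left out of their lists. No test was made, and 1 array per condition limits the precision. The bound rule was tested on simulated data. The alternatives, 11 in number, were other scalings, background corrections, filters and probe choices, and the series matrix, which holds the deposited intensity within 0.05 for probes spotted once. Normexp used the median spot signal. Python 3.11.15, numpy 2.4.6, pandas 2.3.3, matplotlib 3.10.9, R 4.3.3 and limma 3.58.1 were used.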

Additional observations from a re-analysis of the deposited data

How the results depend on the processing

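No paired analysis was possible because each condition had 1 array. In SC siRNA over DMSO 6 to 7 members were past 2-fold over the alternatives, and 0 of 107 recomputed member values changed sign. The median over the members was 2.30 with the 50th percentile, 2.003 with normexp, 2.25 with plain subtraction and 2.21 with bounds left out, where the count was 6. In PHA665752 over DMSO the count past 2-fold was 1 with the 50th percentile and 1 with the median over each gene's probes (3 with quantile normalization), and the members' median was 0.15 with the 50th percentile, 0.30 with the median of the array's own probes well above background, 0.55 with dim probes kept and 0.31 with the median over probes. There 4 of 88 member values changed sign, 3 of them for TLR3. In MET siRNA over SC siRNA the count was 1 in every alternative run, the median was 0.092 with the median of the array's own probes well above background, and 4 of 99 member values changed sign. The cause of these moves was not tested. The list counts and the genes named from lists were recomputed in SC siRNA over DMSO alone, a choice made after seeing the data. IFNB1 and IFNL1 were limited by signals near background without transfection.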
